A study of Rattus norvegicus with 8 samples.

Results

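The calcium/calmodulin-dependent protein kinases (CaM kinases) and their inhibitors were followed in somata and processes of rat hippocampal neurons after 48 h of picrotoxin (PTX). The 10 genes were chosen by symbol: the 4 kinase genes of the CaMKII holoenzyme (Camk2a, Camk2b, Camk2d and Camk2g), the 2 CaMKII inhibitor genes (Camk2n1 and Camk2n2), the 2 CaM kinase kinases (Camkk1 and Camkk2), and Camk4 and Camk1d, which encode kinases downstream of the kinase kinases. All 10 were present among the 28909 gene symbols of the count table, and all 10 were among the 14309 genes with enough reads to be tested. Primary hippocampal neurons of Sprague-Dawley rat embryos were grown on filter inserts, so that the somata stayed on the upper side and processes grew through the pores to the lower side. Total RNA of each side was depleted of ribosomal RNA and sequenced from 4 groups with 2 libraries each: somata control, somata PTX, processes control and processes PTX. PTX, a blocker of the GABA-A receptor that raises network activity, was added at 100 μM from day in vitro 18 to 20, and control cultures received the vehicle. The lower side pools the axons and dendrites of all neurons on an insert, and astrocyte genes were measured on both sides. The labels number the replicates but do not say whether they came from separate cultures, so the p-values measure the spread between these libraries, which may be technical.

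CaMKII is a ring of kinase subunits that calcium-bound calmodulin switches on, and autophosphorylation keeps it active after the calcium signal has ended. The alpha and beta subunits, encoded by Camk2a and Camk2b, are the main forms in forebrain neurons, where the beta subunit also binds actin, and Camk2a messenger RNA is a classic example of an mRNA carried into dendrites. The CaMKII inhibitors encoded by Camk2n1 and Camk2n2 bind the active kinase and block it. In a separate cascade, the kinase kinases phosphorylate CaMKIV, which acts mainly in the nucleus on factors such as CREB, and the CaMKI kinases, which act mainly in the cytoplasm, and Camkk2 also activates the AMP-activated kinase.

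Because CREB is a substrate of these kinases and binds the cyclic AMP response element (CRE), the RefSeq promoters of the genes were searched for that element in build GRCr8, over 250 bases before to 50 bases after the start of each gene. A promoter was matched for 7 of the 10 genes (not for Camk2n1, Camkk2 and Camk1d). The full element TGACGTCA, read on both strands, was in 0 of these 7 and in 1.83% of all 33469 promoters. Its core TGACG, on either strand, was in 3 of the 7 promoters and in 21.2% of all promoters (every full element also holds the core). The 4 matches are shown as 30 bases each, with the core, or its reverse complement CGTCA, in capitals. The Camk2a matches lie at chr18:56649018-56649047 and chr18:56649076-56649105, that of Camk2n2 at chr11:93793922-93793951 and that of Camkk1 at chr10:58135692-58135721, all written for the plus strand.
Camk2a, core on the plus strand: ggacctggatgcTGACGaaggctcgcgagg
Camk2a, core on the minus strand: aagccccaagctCGTCAatcaagctggttc
Camk2n2, core on the minus strand: tcgggcgctcatCGTCAttccgctctcgcc
Camkk1, core on the plus strand: gcgccgggggcgTGACGcgtcggggcccat
These matches describe letters in a window and carry no measurement of binding. No core was found in the windows of Camk2b, Camk2d, Camk2g and Camk4.

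The libraries held 12290890 to 18455662 counts. Mitochondrial rRNA took 21.1% to 24.8% of the counts in somata and 64.9% to 68.3% in processes, which left 9517542 to 11227599 counts outside the mitochondrial genome in somata and 4702054 to 5491237 in processes. Levels are given as CPM, counts scaled to a common library size with the TMM factors of edgeR. Differences came from the quasi-likelihood test of edgeR fitted to all 8 libraries, with Benjamini-Hochberg adjustment over the 14309 tested genes. A gene was called when its adjusted p was under 0.05. The common biological coefficient of variation was 11.5%. By chi-square the replicates differed most in processes control, with 21.1 per degree of freedom across genes against 9.11 to 10.1 in the other groups. The correlation of log2 CPM between replicates was 0.978 in both process groups, 0.986 in somata control and 0.987 in somata PTX. Neuronal genes were present in all libraries: the summed level of 5 general neuronal markers was 1189 to 1471 CPM in somata and 3658 to 5153 CPM in processes. Most of this sum was Map2, at a mean of 936 CPM in somata control and 4609 CPM in processes control. Tubb3 (200 and 135 CPM) and Snap25 (203 and 157 CPM) were lower in processes control. Of the 5 markers, 3 were called higher and 2 lower in processes of control cultures, where 47.7% of all tested genes were called. Microglial markers summed to at most 2.44 CPM and endothelial markers to at most 0.466 CPM, with Cldn5, an endothelial junction gene, at 0 in all groups.

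PTX lowered the mRNA of the alpha subunit of CaMKII in both compartments. Camk2a was at 118 and 112 CPM in the somata control libraries and at 50.2 and 55.3 CPM in the somata PTX libraries. In processes it was at 772 and 572 CPM in control and at 234 and 258 CPM after PTX. The PTX libraries lay below the control libraries of the same compartment without overlap. The level fell to 45.8% of control in somata, a log2 fold change of -1.13 (standard error [SE] 0.149, adjusted p = 0.00305 in edgeR's quasi-likelihood test), and to 36.6% in processes, a change of -1.45 on the log2 scale (SE 0.149, adjusted p = 0.00165). With any 1 of the 4 libraries of a comparison left out, Camk2a was still called, with log2 fold changes between -1.20 and -1.06 in somata and between -1.65 and -1.22 in processes. Among all 14309 genes ordered from the largest fall, Camk2a stood at place 78 in somata and at place 125 in processes.

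**Figure D1:**
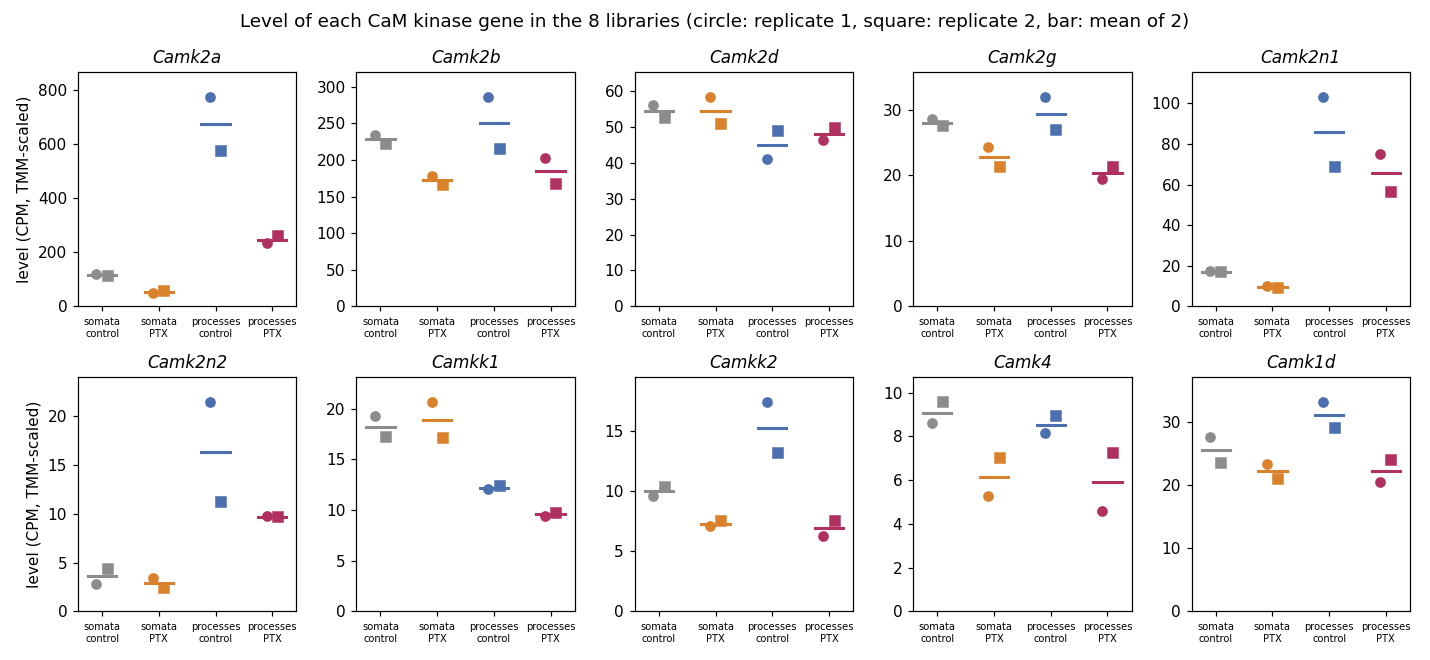
Level of each of the 10 genes as CPM after TMM scaling (vertical axis, from 0) in the 4 groups (horizontal axis). Circles are replicate 1, squares replicate 2 and bars the mean of both libraries. Camk2a lies at 50.2 to 118 CPM in somata and at 234 to 772 CPM in processes, and its PTX libraries are below the controls in each compartment.

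The beta subunit gene moved in the same direction by a smaller amount. Camk2b was at 235 and 222 CPM in somata control, 178 and 166 CPM in somata PTX, 286 and 215 CPM in processes control and 202 and 168 CPM in processes PTX. The PTX libraries again lay below the controls in each compartment. Its log2 fold change was -0.41 in somata (SE 0.148, adjusted p = 0.196) and -0.44 in processes (SE 0.150, adjusted p = 0.160), so that it was not called. With the replicate number as a block, Camk2b was called in both compartments (adjusted p = 0.00446 in somata and 0.00427 in processes). Libraries of the same number deviated together across genes, least so for processes control and processes PTX (r = 0.274). What the numbers mark is not known.

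The other two kinase subunits are expressed in many tissues, and neither was called after PTX. Camk2g was at 28.6 and 27.5 CPM in somata control against 24.4 and 21.3 CPM in somata PTX, and at 32.0 and 26.9 CPM in processes control against 19.4 and 21.3 CPM in processes PTX. The groups did not overlap in either compartment. Its log2 fold change was -0.30 in somata (SE 0.124, adjusted p = 0.266) and -0.53 in processes (SE 0.138, adjusted p = 0.0638), and only the latter was called with the replicate block (adjusted p = 0.00667). Camk2d stayed within 50.9 to 58.5 CPM in the 4 somata libraries and within 41.3 to 49.8 CPM in the 4 process libraries. Its control and PTX groups overlapped in both compartments, with a log2 fold change of 0.01 in somata (SE 0.119) and 0.09 in processes (SE 0.128).

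Of the inhibitor genes, Camk2n1 fell in somata. It was at 17.3 and 16.8 CPM in somata control and at 9.78 and 8.98 CPM in somata PTX, without overlap. This was a change of -0.86 on the log2 scale (SE 0.200, adjusted p = 0.0407), and the call was lost with any 1 of the 4 libraries left out (log2 fold change -0.93 to -0.80, adjusted p = 0.147 to 0.184). In processes Camk2n1 was at 103 and 68.6 CPM in control and at 75.1 and 56.4 CPM after PTX. Here the groups overlapped, because the higher PTX library exceeded the lower control library. The log2 fold change was -0.39 (SE 0.186, adjusted p = 0.332), and within the replicate numbers, where both PTX libraries were below their control, it was called (adjusted p = 0.0270). Without processes control replicate 1 the log2 fold change was -0.06.

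Camk2n2 was counted at low depth, with 56 to 112 reads per somata library and 85 to 192 per process library. It was at 2.85 and 4.39 CPM in somata control and 3.45 and 2.37 CPM in somata PTX, and the groups overlapped. In processes it was at 21.4 and 11.2 CPM in control and at 9.76 and 9.65 CPM after PTX, so that the fall depended on how far replicate 1 of the control stood above the rest. The log2 fold change was -0.31 in somata (SE 0.326, adjusted p = 0.755) and -0.75 in processes (SE 0.308, adjusted p = 0.249, and 0.0456 with the replicate block). Without processes control replicate 1 it was -0.20 in processes.

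Of the kinase kinases, Camkk2 fell in processes. It was at 17.4 and 13.2 CPM in processes control and at 6.32 and 7.54 CPM in processes PTX, from 55 to 156 reads per library. The groups did not overlap, and the level fell to 45.5% of control, a change of -1.14 on the log2 scale (SE 0.188, adjusted p = 0.0101). The call was lost without processes control replicate 1 (log2 fold change -0.92, adjusted p = 0.0860) and without processes PTX replicate 1 (-1.02, adjusted p = 0.0754). In somata Camkk2 was at 9.61 and 10.4 CPM in control and at 7.08 and 7.54 CPM after PTX. That log2 fold change was -0.45 (SE 0.162, adjusted p = 0.188), which was called with the replicate block (adjusted p = 0.0378).

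Camkk1, the other kinase kinase, was at 19.3 and 17.2 CPM in somata control and at 20.6 and 17.1 CPM in somata PTX, with overlap and a change of 0.05 on the log2 scale (SE 0.133). In processes it was at 12.04 and 12.3 CPM in control and at 9.42 and 9.75 CPM after PTX. Those groups did not overlap, and the change of -0.35 on the log2 scale (SE 0.166) had an adjusted p of 0.332.

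The downstream kinase genes were not called in either compartment. Camk4 was at 8.59 and 9.56 CPM in somata control, 5.29 and 7.03 CPM in somata PTX, 8.14 and 8.93 CPM in processes control and 4.59 and 7.24 CPM in processes PTX. The PTX libraries lay below the controls in each compartment, with a wide gap between the PTX replicates. The log2 fold change was -0.56 in somata (SE 0.203, adjusted p = 0.190, and 0.0103 with the replicate block) and -0.52 in processes (SE 0.247, adjusted p = 0.331). Camk1d, a CaMKI kinase, was at 27.6 and 23.5 CPM in somata control and at 23.3 and 21.0 CPM in somata PTX. In processes it was at 33.1 and 29.0 CPM in control and at 20.4 and 23.9 CPM after PTX. The groups did not overlap in either compartment. Its log2 fold change was -0.20 in somata (SE 0.131, adjusted p = 0.545) and -0.48 in processes (SE 0.145, adjusted p = 0.106, and 0.0159 with the replicate block).

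**Figure D2:**
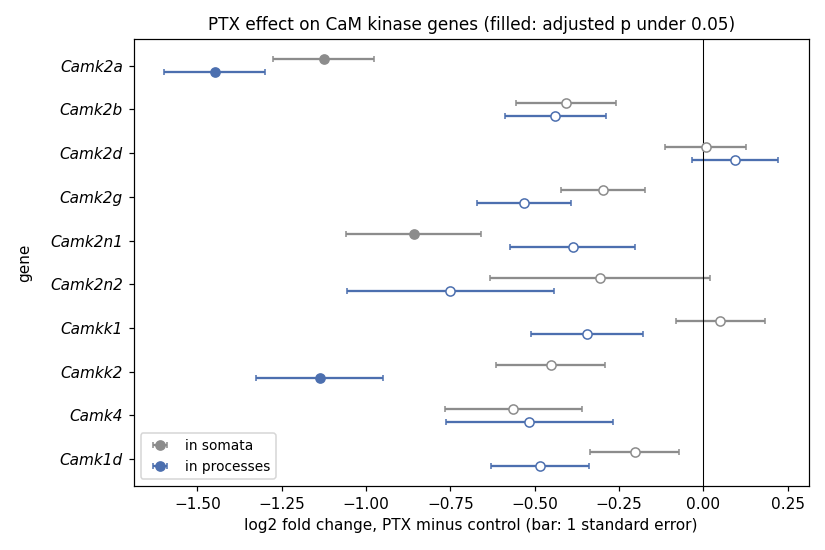
PTX effect on the 10 genes (vertical axis) as log2 fold change of PTX against control (horizontal axis) in somata (grey) and processes (blue). Bars are 1 SE and filled points have an adjusted p under 0.05 in edgeR's quasi-likelihood test. Camk2a is filled in both compartments (-1.13 and -1.45), Camk2n1 only in somata (-0.86) and Camkk2 only in processes (-1.14), and these differences between compartments did not pass a test.

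Counted over the 10 genes, PTX lowered 2 in somata (Camk2a and Camk2n1) and raised none, where 3.59% of all tested genes were called, 2.09% higher and 1.5% lower. In processes it lowered 2 (Camk2a and Camkk2) and raised none, where 3.74% of all tested genes were called, 1.64% higher and 2.1% lower. With the replicate block, 5 of the 10 were called in somata (14% of all genes) and 7 in processes (11.2% of all genes), all of them lower after PTX. The median log2 fold change of the 10 genes was -0.36 in somata and -0.50 in processes, against -0.01 over all tested genes in each compartment. The PTX and control libraries did not overlap for 7 of the 10 genes in somata and for 8 in processes, and for 49% and 42.4% of all tested genes.

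Markers of neuronal classes moved with PTX as well. The summed level of 7 GABAergic markers was 240 to 341 CPM in somata control, 418 to 550 CPM in somata PTX, 135 to 174 CPM in processes control and 219 to 287 CPM in processes PTX. Of the 6 that could be tested, Gad1 and Gad2, which encode the enzymes that make GABA, were called higher in somata (log2 fold change 0.82 and 0.92) and Gad2 in processes (0.92). Slc32a1 of the same list was at -0.02 in somata (mean 28.7 CPM in control and 28.2 CPM after PTX). It was not called there with or without the replicate block. The 7 excitatory neuron markers summed to 331 to 340 CPM in somata control and 242 to 269 CPM in somata PTX, with Neurod6 called lower (-1.64). In processes they summed to 176 to 225 CPM in control and 273 to 296 CPM after PTX, with Neurod2 (-1.44) and Neurod6 (-1.34) called lower and Slc17a7, the vesicular glutamate transporter of cortical and hippocampal neurons, called higher (0.73). The 9 astrocyte markers summed to 4709 to 5309 CPM in somata control, 3646 to 4913 CPM in somata PTX, 15322 to 16453 CPM in processes control and 12532 to 14455 CPM in processes PTX, and 1 of the 9, Gja1, a gap junction gene, was called lower in somata (-0.61). The 5 general neuronal markers summed to 1355 to 1471 CPM in somata control and 1189 to 1290 CPM in somata PTX. In processes they summed to 4890 to 5153 CPM in control and 3658 to 4277 CPM after PTX. Their median log2 fold change was -0.38 in somata and -0.47 in processes. Of these 5, Rbfox3 was called lower in somata (-0.67) and Syn1 in processes (-0.76). The replicate block called 3 of the 5 in somata and 4 in processes, all lower. With the replicate block 5 of the 6 GABAergic markers were called in somata (all higher) and 2 in processes, and 6 of the 7 excitatory markers in each compartment (2 higher and 4 lower). None of the markers in these 4 lists was at 0 in a whole group. The part of these shifts in the levels of the CaM kinase genes was not tested, and fewer cells of a type and less RNA per cell cannot be told apart in bulk RNA.

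Whether the PTX effect differed between compartments was tested as an interaction. No member was called, as was no gene at all (0 of 14309, 0%, in edgeR's quasi-likelihood test). At an unadjusted p under 0.05, 572 genes (4%) and 1 member passed. That member was Camkk2, with a PTX effect lower by 0.68 on the log2 scale in processes than in somata (SE 0.249, unadjusted p = 0.0192). The likelihood ratio test and DESeq2 called 4 genes each and the replicate block 15 (0.105%), none of them a member. For Camk2a the difference was -0.32 (SE 0.208) and for Camk2n1 it was 0.47 (SE 0.272).

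In control cultures, Camk2a and both inhibitor genes were higher in processes than in somata. Camk2a averaged 672 ± 142 CPM (SD, n = 2) on the process side and 115 ± 4.88 CPM (SD, n = 2) on the somatic side, which is 5.84 times as much (log2 fold change 2.55, SE 0.154, adjusted p = 9.5e-07). Camk2n1 averaged 85.9 ± 24.4 CPM against 17.0 ± 0.320 CPM (SD, n = 2 each), 5.04 times as much (log2 fold change 2.33, SE 0.194, adjusted p = 5.26e-06). Camk2n2 averaged 16.3 ± 7.25 CPM against 3.62 ± 1.09 CPM (SD, n = 2 each), 4.49 times as much (log2 fold change 2.17, SE 0.310, adjusted p = 0.000237). Ordered from the largest process level relative to somata, these 3 genes stood at places 87, 159 and 226 of 14309. For each of the 3, every process library exceeded every somata library.

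The kinase kinases went in opposite directions between the compartments of control cultures. Camkk1 was lower in processes (log2 fold change -0.58, SE 0.148, adjusted p = 0.00824), and Camkk2 was higher there (log2 fold change 0.61, SE 0.167, adjusted p = 0.0116). Camkk2 was below 0 (-1.21) without TMM factors and was not called with upper quartile scaling (0.41, adjusted p = 0.0571). Both calls were lost without somata control replicate 1, at log2 fold changes of -0.50 for Camkk1 (adjusted p = 0.0587) and 0.56 for Camkk2 (adjusted p = 0.0719) and with fewer genes called in all (5022 against 6823). Camkk2 was also not called without processes control replicate 1 (0.40, adjusted p = 0.120). The remaining members were not called, with log2 fold changes of 0.13 for Camk2b, -0.27 for Camk2d, 0.07 for Camk2g, -0.09 for Camk4 and 0.28 for Camk1d. Of these, Camk2d (adjusted p = 0.0932) and Camk1d (adjusted p = 0.112) were called with the replicate block (0.0322 and 0.0397). In all, 5 of the 10 genes were called, 4 higher and 1 lower in processes, where 47.7% of all tested genes were called, 25.8% higher and 21.9% lower, so the count lay near the background. Without TMM factors 9 were called, 2 higher and 7 lower, as were 13462 of all 14309 genes, 191 higher and 13271 lower. The replicate block called 7 (57.8% of all genes), and the process and somata libraries did not overlap for 7 of the 10 genes (74.9% of all genes).

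**Figure D3:**
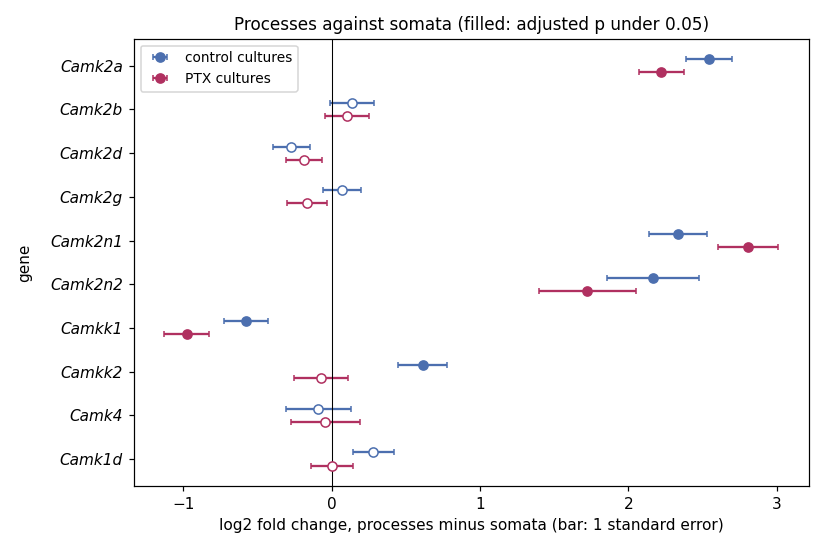
Difference between processes and somata for the 10 genes (vertical axis) as log2 fold change (horizontal axis) in control (blue) and PTX cultures (red) after TMM scaling. Bars are 1 SE and filled points have an adjusted p under 0.05. Camk2a, Camk2n1 and Camk2n2 lie at 1.72 or above in both cultures, and without TMM factors all points shift to the left, the median of all genes to -1.86 (control) and -1.87 (PTX).

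In PTX cultures Camk2a and both inhibitor genes were again higher in processes after TMM scaling, while without TMM factors Camk2n2 was at -0.10 (adjusted p = 0.758). Camk2a was 4.67 times as high in processes (log2 fold change 2.22, SE 0.154, adjusted p = 1.63e-06), Camk2n1 6.99 times (2.81, SE 0.203, adjusted p = 2.1e-06) and Camk2n2 3.31 times (1.72, SE 0.328, adjusted p = 0.00141). Camkk1 averaged 9.58 ± 0.238 CPM on the process side against 18.9 ± 2.53 CPM (SD, n = 2 each), 50.8% of the somata level (log2 fold change -0.98, SE 0.151, adjusted p = 0.00037). Camkk2 averaged 6.93 ± 0.867 CPM against 7.31 ± 0.320 CPM (SD, n = 2 each), with overlap and a change of -0.07 on the log2 scale (SE 0.185). The other 5 members were not called, with log2 fold changes from -0.19 (Camk2d) to 0.10 (Camk2b). Together 4 of 10 were called, 3 higher and 1 lower, against 49.8% of all tested genes, 25.7% higher and 24% lower. The replicate block also called 4 (59.5% of all genes), and the libraries did not overlap for 5 of the 10 genes (75.9% of all genes). Without TMM factors 9 were called, 2 higher and 7 lower, as were 13499 of all genes, 181 higher and 13318 lower.

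These compartment values are relative to the typical tested gene, since no value gives the total RNA of a compartment. Without TMM factors the median over all genes moved from -0.05 to -1.86 in control cultures. The log2 fold change was then 0.72 for Camk2a, 0.51 for Camk2n1 and 0.33 for Camk2n2, which was no longer called (adjusted p = 0.282), and relative to the shifted median it was 2.58, 2.37 and 2.19. That scaling shifts all genes nearly alike, so by construction all 10 members kept their side of the median in both kinds of culture. The compartments also differed in glial genes: of 9 astrocyte markers, 5 were called higher and 2 lower in processes of control cultures (47.7% of all tested genes were called). Gfap, the intermediate filament of astrocytes, was at a log2 fold change of 2.60. The part of glial genes in the compartment differences was not tested.

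Over the 4 groups, the levels of Camk2a were in the order processes control, processes PTX, somata control, somata PTX, and no neighbours in this order overlapped. Camk2n1 had the same order, but its processes control and processes PTX libraries overlapped. After TMM scaling, Camkk2 had its highest level in processes control, followed by somata control, and its somata PTX and processes PTX libraries overlapped at the lowest level. For Camkk1 the order was somata PTX, somata control, processes control, processes PTX, of which the somata groups overlapped.

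Read ratios within a library do not depend on the scaling between libraries. They compare reads, not molecules, since transcripts of different length collect different numbers of reads. For each read of Camk2b, there were 0.505 and 0.504 reads of Camk2a in somata control and 0.282 and 0.333 in somata PTX. In processes there were 2.70 and 2.66 reads in control and 1.16 and 1.54 after PTX. The ratio was thus lower after PTX in each compartment without overlap, with a log2 difference of -0.72 in somata and -1.005 in processes. Over both compartments the log2 difference was -0.86, negative in 4 of 4 pairs of the same replicate number. It was 2.27 higher in processes than in somata, positive in 4 of 4 pairs. Each comparison had p = 0.0556 in a two-sided exact permutation test within strata (adjusted p = 0.0741 over 4 tests), which is the smallest value that the 36 regroupings of this design allow.

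**Figure D4:**
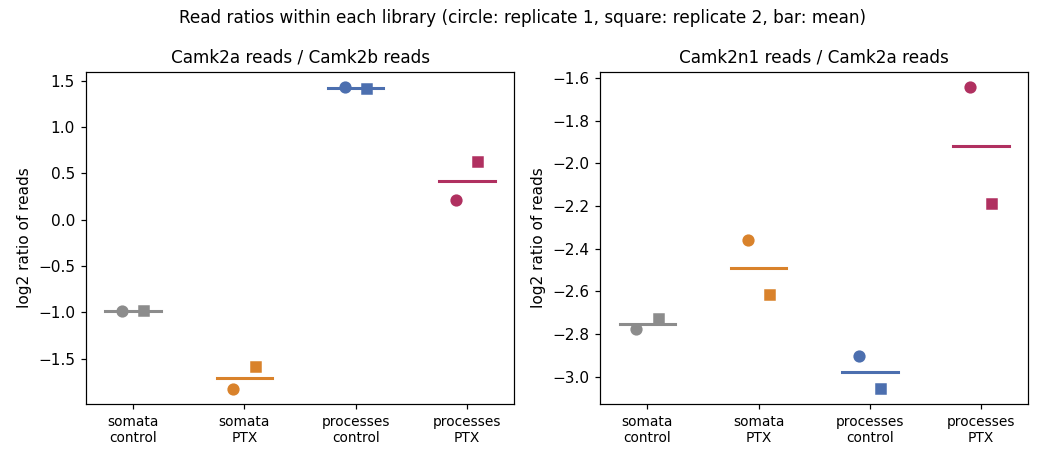
Ratio of reads within each library on a log2 axis, Camk2a to Camk2b on the left and Camk2n1 to Camk2a on the right, in the 4 groups (horizontal axis). Circles are replicate 1, squares replicate 2 and bars the mean. After PTX the left ratio is lower and the right ratio higher than in control in each compartment, with mean differences over both compartments of -0.86 and 0.66.

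The inhibitor to kinase ratio went the other way. Camk2a is the numerator of the first ratio and the denominator of this one, so the ratios are not independent. For each read of Camk2a there were 0.146 and 0.151 reads of Camk2n1 in somata control and 0.195 and 0.163 in somata PTX. In processes there were 0.134 and 0.120 in control and 0.320 and 0.219 after PTX. PTX libraries lay above the controls in each compartment, with a log2 difference of 0.27 in somata, 1.06 in processes and 0.66 over both (exact permutation p = 0.0556, adjusted p = 0.0741, positive in 4 of 4 pairs). Between compartments the ratio differed by 0.17 (exact permutation p = 0.611), positive in 2 of 4 pairs, with -0.23 in control cultures and 0.57 in PTX cultures.

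Other genes of the pathway were read from 5 lists, whose counts after PTX stand beside 3.59% of all genes called in somata and 3.74% in processes, or 14% and 11.2% with the replicate block. Among the other calmodulin-regulated or CaMK-related kinases, 3 rose, 1 fell and 12 did not pass of 16 tested in somata after PTX. Camk1g, another CaMKI kinase, rose from 9.84 ± 1.89 to 18.8 ± 1.63 CPM (SD, n = 2 each), a log2 fold change of 0.93 (adjusted p = 0.0270). Dclk1, a doublecortin-like kinase of microtubules, rose by 0.58 (adjusted p = 0.0414). In processes Camk1g was at 0.88 and Dclk1 at 0.47, called only with the replicate block (adjusted p = 0.0113 and 0.00446). Mylk3, a myosin light chain kinase, had 6 and 8 reads in the control libraries and 34 and 35 in the PTX libraries, a log2 fold change of 2.21 (adjusted p = 0.0147) that DESeq2 did not call (adjusted p = 0.106). In processes Mylk3 was at -0.10. Dapk1, the death-associated protein kinase, fell in both compartments, with a log2 fold change of -0.84 in each (adjusted p = 0.0053 in somata and 0.0135 in processes). In processes, Dapk1 and Eef2k, the calmodulin-activated kinase of elongation factor eEF2, fell (log2 fold change -0.62, adjusted p = 0.0203 for Eef2k) and the other 14 did not pass. In somata Eef2k was at -0.43, called only with the replicate block (adjusted p = 0.00397). The median of this list was -0.06 in somata and -0.05 in processes, against -0.01 for all genes. With the replicate block 9 of the 16 passed in somata (4 higher and 5 lower) and 6 in processes (2 higher and 4 lower).

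Crem, which encodes a CREB-related factor with repressor isoforms that neuronal activity induces, rose in both compartments. It was between 8.50 and 10.5 CPM in somata control and between 23.7 and 25.6 CPM in somata PTX, a change of 1.38 on the log2 scale (SE 0.191, adjusted p = 0.00371). In processes it was between 22.6 and 33.1 CPM in control and between 79.0 and 103 CPM after PTX, a change of 1.71 on the log2 scale (SE 0.190, adjusted p = 0.00223). Crtc1, a CREB coactivator, fell in processes (log2 fold change -0.81, adjusted p = 0.0473) and was at -0.28 in somata (not called). Of the 15 tested targets and cofactors of CaMKK, CaMKI and CaMKIV, 1 rose and 14 did not pass in somata, and 1 rose, 1 fell and 13 did not pass in processes. The median was -0.17 in somata and -0.10 in processes. With the replicate block 2 of the 15 passed in somata, with Hdac5 added (log2 fold change 0.33, adjusted p = 0.0305), and 3 in processes, with Mef2c added (-0.45, adjusted p = 0.00671).

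Of 14 CaMKII partners and substrates at excitatory synapses, 1 fell and 13 did not pass in somata, and 1 rose, 1 fell and 12 did not pass in processes. Gria1, the GluA1 subunit of AMPA receptors and a CaMKII substrate, fell in somata (log2 fold change -0.53, adjusted p = 0.0301). In processes Gria1 was at -0.38, called only with the replicate block (adjusted p = 0.0131). Lrrc7, the scaffold densin that binds CaMKII, fell in processes (-0.65, adjusted p = 0.0476), and Actn1, an alpha-actinin, rose there (0.65, adjusted p = 0.0238). In somata Lrrc7 was at -0.42 and Actn1 at 0.35, called only with the replicate block (adjusted p = 0.00676 and 0.0168). The medians were -0.10 in somata and -0.10 in processes. With the replicate block 4 of the 14 passed in somata and 6 in processes. None of the 6 genes for calmodulin and calmodulin-binding buffers and none of the 2 CaMK phosphatases passed after PTX in either compartment. With the replicate block 2 of the 6 passed in somata and 1 in processes, and 1 of the 2 phosphatases passed in each. No gene of the lists was called in the interaction, so a call in only 1 compartment is no sign of a different response.

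**Figure D5:**
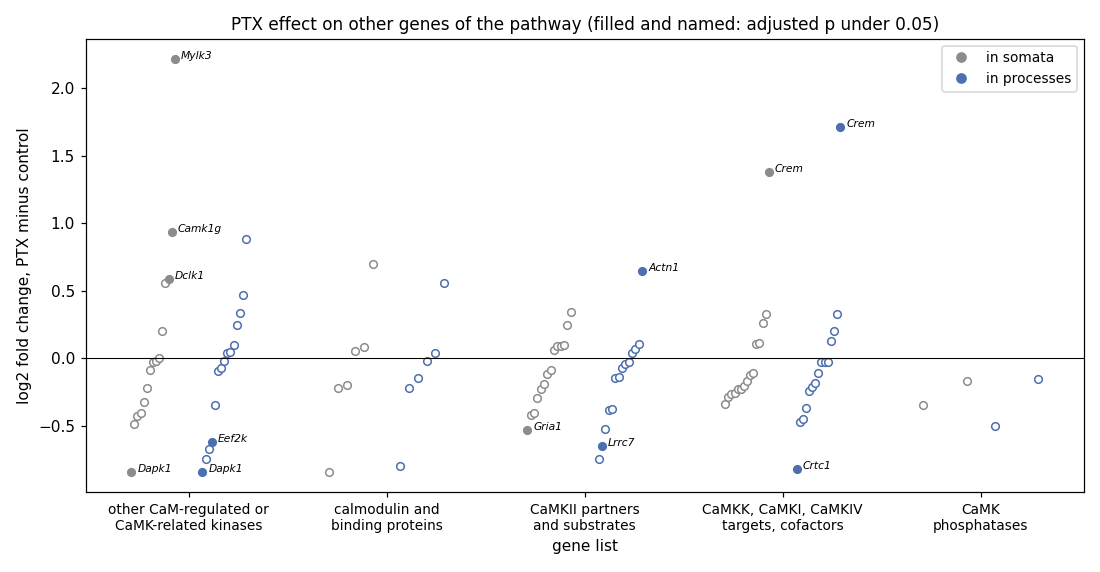
PTX effect on the tested genes of 5 pathway lists (horizontal axis) as log2 fold change of PTX against control (vertical axis), in somata (grey) and processes (blue). Filled and named points have an adjusted p under 0.05 in edgeR's quasi-likelihood test, and Dclk3, with 0 reads in both processes PTX libraries, is not drawn. Crem is named in both compartments at 1.38 and 1.71, and most open points lie near 0.

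With a library left out, fewer genes were called in all (116 to 218 in somata and 97 to 422 in processes), and several of these calls were lost, with no change of sign. In somata, Camk1g, Dclk1 and Gria1 were not called with any 1 of the 4 libraries left out (adjusted p from 0.0575 to 0.267, from 0.135 to 0.348 and from 0.0895 to 0.212), with log2 fold changes of 0.74 to 1.14, 0.49 to 0.66 and -0.63 to -0.45. Mylk3 was not called without either control library (0.0965 and 0.110), Crem without control replicate 2 (0.0540) and Dapk1 without PTX replicate 2 (0.0530). In processes, Dapk1, Eef2k, Lrrc7 and Crtc1 passed only when the library left out was control replicate 2 (adjusted p otherwise 0.0754 to 0.109, 0.0799 to 0.126, 0.155 to 0.280 and 0.0776 to 0.306), and Actn1 only when it was control replicate 1 (otherwise 0.0818 to 0.118). The log2 fold changes ranged from -0.98 to -0.67 for Dapk1, -0.67 to -0.56 for Eef2k, -0.89 to -0.36 for Lrrc7, -1.04 to -0.59 for Crtc1 and 0.50 to 0.81 for Actn1. Crem was called in processes whichever of the 4 libraries was left out.

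The calmodulin genes Calm2 and Calm3 went in opposite directions between the compartments of control cultures. Calm3 was higher in processes (log2 fold change 1.02, adjusted p = 0.000394) and Calm2 was lower (-0.37, adjusted p = 0.0227). Without TMM factors both were below 0, where the median of all genes was -1.86 in control and -1.87 in PTX cultures. Relative to that median Calm3 was at 1.07 and Calm2 at -0.33 in control cultures. In PTX cultures Calm3 was again higher in processes (1.03), and below 0 (-0.81) without TMM factors. The calmodulin-binding peptide gene Pcp4 was higher in processes as well (0.90 in control and 0.67 in PTX cultures), and below 0 in both without TMM factors. Of the 6 genes read from this list, 2 were higher and 1 was lower in control cultures, and 2 were higher in PTX cultures, with medians of 0.73 and 0.67. Among all genes 47.7% were called in control and 49.8% in PTX cultures. The phosphatase gene Ppm1f, which reverses CaM kinase activation, was higher in processes by 0.37 in control and 0.38 in PTX cultures, and the other phosphatase of the list did not pass.

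The CaMKII partners were split between the compartments. In control cultures 4 of 14 were higher and 6 lower in processes. Higher were the scaffolds Shank3 (log2 fold change 3.14, adjusted p = 6.92e-07) and Dlg4 (1.78) and the guanine nucleotide exchange factor Kalrn (1.10). Without TMM factors Dlg4 (-0.048) and Kalrn (-0.72) were below 0, but at 1.81 and 1.14 relative to the median of all genes (-1.86). Lower were the NMDA receptor subunits Grin2a (-1.25) and Grin2b (-1.23), which bind CaMKII, and the exchange factor Rasgrf1 (-0.89). In PTX cultures 3 were higher, Shank3 (2.80), Dlg4 (1.66) and Kalrn (1.25), and 5 lower, with Grin2a (-1.28), Grin2b (-1.21) and Actn2 (-1.20) in front. Medians were 0.02 and -0.08. These counts stand beside the 47.7% and 49.8% of all genes that were called.

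Among the kinase targets and cofactors 5 of 15 were higher and 1 lower in processes of control cultures. The counts of this list and of the other kinases stand beside 47.7% of all genes called in control and 49.8% in PTX cultures. The higher ones were led by Crem (log2 fold change 1.56), Crtc1 (1.41) and the class II deacetylase Hdac5 (1.39). Without TMM factors all 3 were below 0, but at 1.62, 1.45 and 1.43 relative to the median of all genes. Prkaa1, a catalytic subunit of the AMP-activated kinase, was lower (-0.45). In PTX cultures 5 were higher, led by Crem (1.89), Akt1 (1.28) and Hdac5 (1.27), and 2 lower, Crtc2 (-0.76) and Mef2c (-0.71). Of the 16 other kinases, 4 were higher and 3 lower in control cultures. Dclk1 (1.37), the pseudokinase Camkv (0.58) and Phkg2 (0.51) were higher. Without TMM factors these 3 were below 0, but at 1.43, 0.62 and 0.56 relative to the median of all genes. Pnck (-1.82), Camk1g (-1.40) and Dapk1 (-0.56) were lower. In PTX cultures 3 were higher, Dclk1 (1.26), Phkg2 (0.62) and Cask (0.34), and 5 lower, among them Camk1g (-1.46) and Mylk3 (-1.83). Mylk3 had 34 and 35 reads in somata PTX and 2 and 5 in processes PTX. It was tested only through somata PTX, where it was high, and DESeq2 did not call it (adjusted p = 0.0827). Dclk3 also passed, with 12 and 14 reads in somata PTX and 0 reads in both processes PTX libraries.

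Leaving out a library also ended some of these compartment calls, without a change of sign. In control cultures, the largest adjusted p was 0.131 for Calm2, 0.262 for Prkaa1 and 0.140 for Rasgrf1 (each without processes control replicate 2), 0.138 for Camkv (without processes control replicate 1), and 0.0555 for Phkg2 and 0.0988 for Ppm1f (without somata control replicate 2). In PTX cultures it was 0.197 for Crtc2 and 0.0758 for Mylk3 (without processes PTX replicate 1), 0.0626 for Mef2c and 0.0513 for Dclk3 (without processes PTX replicate 2), 0.123 for Cask (without somata PTX replicate 2) and 0.106 for Ppm1f (without somata PTX replicate 1).

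For 3 members the genes with the closest profile over the 8 libraries were taken from 10207 tested genes averaging 5 CPM or more, by Euclidean distance between log2 CPM values centred on the gene's own mean. For Camk2a these were Pgm5 (distance 0.814), Srcin1 (0.820) and LOC108348172 (0.889). For Camk2n1 they were Gng7 (0.424), Apc (0.481) and LOC108348172 (0.493), so that the same gene was among the 3 closest of both. For Camk4 they were S1pr1 (0.211), Ncoa5 (0.288) and Tarsl2 (0.297). The PTX log2 fold changes of Srcin1, a Src kinase inhibitor at synapses, were -0.49 in somata and -1.16 in processes, and those of Pgm5 were -0.66 and -0.88, both nearer to 0 than those of Camk2a. All 8 libraries entered these profiles, and the members of a pair share library depth and scaling.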

How the data were processed

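Ribo(-) RNA of somata and processes was read as 100-base single reads from 8 libraries, 2 for each of 4 groups taken from the sample titles. According to the study's methods, the authors trimmed reads with Trimmomatic 0.38, mapped them to Rnor 6.0 with subjunc (Subread 1.33.16), used the annotation of Ensembl release 96, counted with featureCounts 1.6 and summed counts by gene symbol (the submitters' processing notes name STAR, featureCounts and edgeR). The deposited values are raw counts without normalization. The kit keeps strand, but the strand setting of the counting is not given in the sources used here, and reads of near-identical copies or overlapping genes are of uncertain origin. The authors' tables of their own PTX comparisons (fold changes, p-values) were not used.

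Genes were tested if 2 or more libraries held over 20 reads, and the model was fitted with edgeR 4.0.16 in R 4.3.3 (TMM, 1 coefficient per condition, glmQLFit and glmQLFTest), and Benjamini-Hochberg adjustment ran within each of 5 comparisons. The standard error of a log2 fold change is its size over the root of its F statistic. Read ratios used 0.5 added reads. Pairing was checked by correlating the difference between replicates 2 and 1 across genes, and r was 0.274 to 0.540 for the 6 pairs of groups. The replicate block is therefore given where it changes the call of a member or the PTX call of a pathway gene named for its PTX effect. For the lists after PTX it is given as counts. Genes named only between compartments, among them Shank3, Grin2b, Camkv, Actn2 and Pnck, also changed a PTX call with the block. Those changes stand only in the list counts. The replicate numbers come from the labels, which do not say what they mark. With the block the common biological coefficient of variation was 6.77%. Camk2g and Camk1d were called with it in processes although their replicates deviated in opposite directions. Replicate 2 minus replicate 1 was -0.25 in control and 0.13 in PTX for Camk2g, and -0.19 and 0.23 for Camk1d. For Camk2b, Camk2n1 and Camk2n2 both deviations had the same sign.

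The members and lists were chosen with earlier results of these data known. Named are all members and, from each list, at most 3 called genes with the largest rise and 3 with the largest fall. Some single genes of the lists are not reported here. Tried in place of these choices were DESeq2 1.42.0, the likelihood ratio test, other scalings, filters and thresholds, the 2 groups alone, the block and leaving out each library. Promoters are from RefSeq (GRCr8).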

Additional observations from a re-analysis of the deposited data

How the results depend on the processing

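The number of CaM kinase genes called after PTX moved with several choices. In somata 2 were called, against 5 with the replicate block, 1 at an adjusted p under 0.01 and 1 to 1 with a library left out. In processes 2 were called, against 7 with the replicate block, 5 without a filter on low counts, 3 with the likelihood ratio test of the study (Camk2g added, adjusted p = 0.0203), 1 at an adjusted p under 0.01 and 1 to 2 with a library left out. Between compartments of control cultures 5 were called, against 9 scaled by library size only (2 higher and 7 lower, as 13462 of all genes were called, 13271 of them lower) and 3 to 5 with a library left out, and upper quartile scaling gave 3 higher and 2 lower. In PTX cultures 4 were called, against 9 by library size only (2 higher and 7 lower, of 13499 genes called, 13318 of them lower), and upper quartile scaling gave 3 of each. The replicate block changed no call of a member other than those given in the report. Among all genes, calls after PTX (513 in somata and 535 in processes) were 2002 and 1601 with the block, 972 and 949 with the likelihood ratio test, 1141 and 1129 without a filter, 172 and 132 at 0.01, 879 and 890 at 0.1, 116 to 218 and 97 to 422 with a library left out, and 299 in processes with its 2 groups alone. By library size only, 351 genes rose and 140 fell in somata, against 299 and 214, and 237 rose and 220 fell in processes, against 235 and 300. The read ratios kept their sign with 5 reads added and with differences taken within the replicate number. Some named genes lost their call. The 2 groups alone did not call Actn1, Lrrc7, Crtc1 and Eef2k in processes after PTX (adjusted p = 0.0672 to 0.0928). DESeq2 did not call Mylk3, nor Prkaa1 in control and Crtc2 in PTX cultures. Between compartments, upper quartile scaling did not call Camkk2, Camkv and Phkg2 in control cultures, Cask in PTX cultures, or Ppm1f in either. Library size only lost Gria1 and Dclk1 in somata and Crtc1 and Eef2k in processes after PTX.

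Scaled by library size only, values above 0 fell below 0 in control cultures for Camk2b (-1.69), Camk2g (-1.75), Camkk2 (-1.21), Camk1d (-1.53), Calm3 (-0.79), Pcp4 (-0.91), Ppm1f (-1.45), Dlg4 (-0.048), Kalrn (-0.72), Crem (-0.24), Crtc1 (-0.41), Hdac5 (-0.43), Dclk1 (-0.43), Camkv (-1.24) and Phkg2 (-1.30). In PTX cultures they did so for Camk2b (-1.73), Camk2n2 (-0.10), Camk1d (-1.82), Calm3 (-0.81), Pcp4 (-1.16), Ppm1f (-1.44), Dlg4 (-0.17), Kalrn (-0.58), Akt1 (-0.55), Hdac5 (-0.57), Dclk1 (-0.56), Phkg2 (-1.20) and Cask (-1.49). By construction this scaling shifts all genes alike, and all 10 members and 20 pathway genes stayed on their side of the shifted median in each kind of culture. Upper quartile scaling gave -0.014 for Camk2d after PTX in somata, -0.070 for Camk2b and -0.13 for Camk2g between compartments in control cultures, and -0.074 for Camk2b and -0.17 for Camk1d in PTX cultures. The latter was -0.014 without a filter and -0.064 with at least 10 reads in every library. Upper quartile scaling also moved the median over all genes, to -0.25 between compartments in control cultures, -0.23 in PTX cultures and -0.026 after PTX in somata. Relative to the median, Camk2b and Camk2g stayed at 0.18 and 0.12 in control cultures. Camk2b and Camk1d stayed at 0.15 and 0.053 in PTX cultures. The cause of the changes with the filters was not tested.

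With a library left out, uncalled log2 fold changes crossed 0. After PTX in somata the ranges were -0.10 to 0.10 for Camk2d, -0.62 to 0.030 for Camk2n2 and -0.10 to 0.18 for Camkk1, and in processes -0.026 to 0.22 for Camk2d. Between compartments in control cultures they were -0.086 to 0.33 for Camk2b and -0.062 to 0.19 for Camk2g, and in PTX cultures -0.036 to 0.23 for Camk2b, -0.42 to 0.24 for Camk4, -0.21 to 0.046 for Camkk2 and -0.12 to 0.11 for Camk1d. For the interaction they were -0.22 to 0.19 for Camk2b, -0.032 to 0.21 for Camk2d, -0.83 to 0.11 for Camk2n2 and -0.33 to 0.33 for Camk4. Depth limits the genes with fewest reads, and process libraries held as few as 85 reads of Camk2n2, 82 of Camkk1, 55 of Camkk2 and 40 of Camk4, and somata libraries as few as 56 of Camk2n2.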
